A study of Mus musculus with 10 samples.

Results

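Expression of 9 genes of gluconeogenesis, glycolysis and insulin signaling was examined in mouse liver. These were *Pck1*, *G6pc* and *Fbp1* (gluconeogenic enzymes), *Pklr* (a glycolytic enzyme), *Slc2a2* (the hepatic glucose transporter), *Insr*, *Irs1* and *Irs2* (insulin receptor and its substrates) and *Ppargc1a* (a transcriptional coactivator of the fasting response). They were chosen by gene name, and all 9 were found among the 54532 genes of the expression table and among the 13306 genes that passed the filter on low reads.

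Bulk RNA sequencing was performed on livers of 10 mice on a C57BL/6J background that had been fed a high fat diet (HFD) for 7 weeks and were fasted for 5 h. Control ASK1f/f mice (n = 5) carried a ROSA26 allele with murine ASK1 cDNA behind a lox-stop-lox cassette and no Cre. Their ASK1+hep littermates (n = 5) carried the same allele together with Cre driven by the albumin promoter, which removes the stop in hepatocytes. ASK1, encoded by *Map3k5*, is a stress-activated kinase upstream of JNK and p38, and the comparison asks how its overexpression in hepatocytes changes the liver transcriptome on HFD. Each library came from a separate mouse, so p-values measure the spread between these livers. Per the study's methods the diet began at 6 weeks of age. Sex is not in the labels, and all 10 livers expressed *Ddx3y* and lay at no more than 0.0129 FPKM of *Xist*, the pattern of males.

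In the fasted liver, gluconeogenesis runs from pyruvate through phosphoenolpyruvate and fructose 1,6-bisphosphate to glucose 6-phosphate and glucose. *Pck1* encodes the cytosolic phosphoenolpyruvate carboxykinase, *Fbp1* the fructose-1,6-bisphosphatase and *G6pc* the catalytic subunit of glucose-6-phosphatase. Glucagon, through cAMP and the coactivator PGC-1α encoded by *Ppargc1a*, raises transcription of these enzymes, whereas insulin, through its receptor, the receptor substrates and Akt, lowers it. Liver pyruvate kinase, encoded by *Pklr*, catalyzes the last step of glycolysis, and its transcription rises with carbohydrate intake and insulin.

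Libraries held 13367742 to 16163378 reads on genes. *Map3k5* ranged from 4.71 to 6.88 FPKM in 4 of the 5 libraries labelled ASK1f/f and from 7.68 to 16.4 FPKM in all 5 labelled ASK1+hep, but the library labelled ASK1f/f replicate 5 held 19.8 FPKM, the highest level of all 10. Genotypes are given as labelled, and the log2 differences of *Pklr*, *G6pc*, *Ppargc1a*, *Nr0b2*, *Esrrg* and *Asns* are given without that library as well. All 9 hepatocyte markers measured were present, with summed levels of 33987 to 45482 FPKM for ASK1f/f and 39436 to 49291 for ASK1+hep livers. Summed markers of the other cell types overlapped between genotypes in every case. Kupffer cell markers summed to 104 to 171 FPKM for ASK1f/f and 74.4 to 155 for ASK1+hep livers, and all 8 had a lower estimate in ASK1+hep livers, none at an unadjusted p below 0.05. A lower estimate was also found for 6 of 8 endothelial and 6 of 8 stellate markers, and for 6914 of all 13306 genes tested. Markers of endothelial cells (28.8 to 52.4 FPKM), stellate cells (44.0 to 90.3 FPKM), cholangiocytes (19.2 to 37.6 FPKM), lymphocytes (1.98 to 3.76 FPKM), neutrophils (2.13 to 17.7 FPKM) and pancreatic acinar cells (7.14 to 20.02 FPKM) summed to these ranges over the 10 livers, with *Amy2b* at 0 throughout. In bulk liver, fewer cells of a type and less RNA per cell cannot be told apart.

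None of the 9 genes passed the adjusted threshold between genotypes (limma on log2(FPKM + 1), adjusted p at or below 0.05), as was the case for 0% of the 13306 genes tested. *Pklr* was the one gene of the 9 at an unadjusted p below 0.05, a level reached by 5.77% of all genes tested and, with a lower level in ASK1+hep livers, by 2.72%. It was also the one gene whose genotypes did not overlap, with every ASK1+hep liver below every ASK1f/f liver, as seen for 0.466% of all genes, and groups without overlap in either direction made up 0.864%. The other 8 genes overlapped between genotypes, 3 with a higher and 5 with a lower estimate in ASK1+hep livers.

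**Figure D1:**
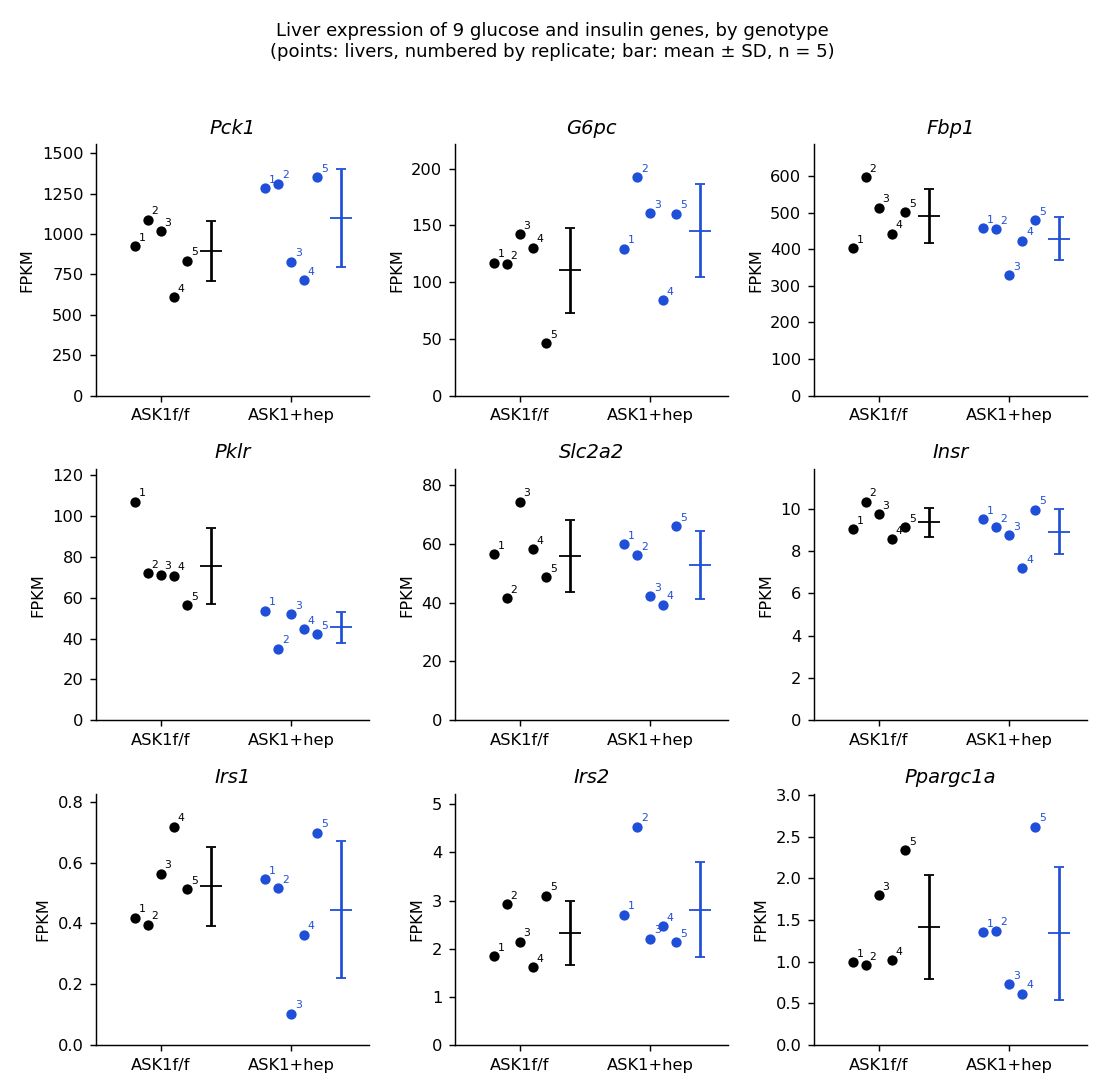
Level of each of the 9 genes in FPKM (y axes start at 0) in the 5 ASK1f/f (black) and 5 ASK1+hep (blue) livers. Points are single livers marked with their replicate number, and bars give the mean ± SD (n = 5). Only the *Pklr* groups are fully separated, at 56.4 to 106.9 FPKM for ASK1f/f and 34.9 to 53.7 for ASK1+hep livers.

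A few promoters are shown because *Pklr* separated the genotypes and because *Pck1* and *G6pc* act against it in the opposing pathway. Windows of 250 bases before to 50 bases after the RefSeq start sites (GRCm38.p6) were found for 8 of the 9 genes, *Insr* being the exception, and gave 9 windows since *Pklr* has 2 start sites. Both strands were searched for the core of the cAMP response element (TGACG), the FOXO core (TGTTTAC), an insulin response sequence (TGTTTTG), the E-box (CACGTG), the TATA box (TATAAA) and the carbohydrate response element, a pair of E-box-like motifs spaced by 5 bases (CACGNGNNNNNCNCGTG), which was added to the search after the promoter sequences had been seen. Capitals mark the matches. The first *Pklr* start (chr3:89135892-89136191) had no match, and the second, which lies inside the annotated gene, is shown, followed by *Pck1* and *G6pc*, all on the plus strand.
Pklr, second start, chr3:89136373-89136672: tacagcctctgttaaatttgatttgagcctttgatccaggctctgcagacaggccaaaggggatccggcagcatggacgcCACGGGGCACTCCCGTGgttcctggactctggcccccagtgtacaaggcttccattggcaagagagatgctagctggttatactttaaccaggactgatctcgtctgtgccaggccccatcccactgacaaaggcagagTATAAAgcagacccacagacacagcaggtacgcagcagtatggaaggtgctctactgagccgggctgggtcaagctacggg
Pck1, chr2:173152823-173153122: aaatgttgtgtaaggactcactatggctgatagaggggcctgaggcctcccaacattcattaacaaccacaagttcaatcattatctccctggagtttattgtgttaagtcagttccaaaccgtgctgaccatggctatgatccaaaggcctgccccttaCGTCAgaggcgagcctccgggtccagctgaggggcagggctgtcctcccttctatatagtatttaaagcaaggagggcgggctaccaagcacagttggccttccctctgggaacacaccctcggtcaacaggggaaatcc
G6pc, chr11:101367466-101367765: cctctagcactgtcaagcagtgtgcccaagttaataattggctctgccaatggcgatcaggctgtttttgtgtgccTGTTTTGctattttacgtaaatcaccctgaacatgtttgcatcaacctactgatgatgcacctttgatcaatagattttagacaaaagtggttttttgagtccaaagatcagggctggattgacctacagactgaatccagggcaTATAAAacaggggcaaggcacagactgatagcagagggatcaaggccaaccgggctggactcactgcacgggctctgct

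The *Pklr* window held a carbohydrate response element, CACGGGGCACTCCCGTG, beginning 170 bases before the start, and a TATA box 31 bases before it. Of 32817 promoter windows in the RefSeq table, 15 (0.0457%) held a carbohydrate response element by these letters, and 13.6% held a TATA box. In the *Pck1* window the cAMP core was read on the minus strand, as CGTCA, beginning 90 bases before the start, and 20.8% of all windows held this core. In *G6pc* an insulin response sequence began 174 bases and a TATA box 29 bases before the start, and 6.29% of windows held the former. Among the windows not shown, *Irs1* and *Irs2* held the insulin response sequence and the E-box (7.15% of all windows), *Irs1* and *Ppargc1a* the cAMP core, and *Fbp1* and *Slc2a2* no match. In *Irs1* the E-box shared bases with both the cAMP core and an insulin response sequence. The FOXO core (3.65% of windows) was in none of the 9. A match is a description of letters and not of a bound site.

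*Pklr* (ENSMUSG00000041237, chr3:89136142-89146784, plus strand) was measured at a lower level in each ASK1+hep liver than in any ASK1f/f liver, a difference that did not pass the adjusted threshold. In ASK1f/f replicates 1 to 5 it was measured at 106.9, 71.9, 71.4, 70.8 and 56.4 FPKM. The ASK1+hep replicates 1 to 5 held 53.7, 34.9, 51.8, 44.5 and 42.1 FPKM. The lowest ASK1f/f liver thus lay just above the highest ASK1+hep liver, and ASK1f/f replicate 1 stood well above the rest. Mean levels were 75.5 ± 18.7 and 45.4 ± 7.62 FPKM (SD, n = 5), a ratio of 0.602. On the log2 scale the difference was −0.71 (SE 0.17, 95% interval −1.08 to −0.33), with an unadjusted p of 0.00154 and an adjusted p of 0.712 by limma, the 22nd lowest p of all genes tested. Over the 252 splits of the livers the exact permutation p (two-sided) was 0.00794, the smallest this design allows. Without the library labelled ASK1f/f replicate 5 the difference was −0.80, and without ASK1f/f replicate 1 it was −0.57, with adjusted p of 0.283 to 0.917 by limma over the 10 fits that left out a liver. Each library held 1462 to 5776 reads on *Pklr*.

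Measures that could share reads or cells with *Pklr* were set beside it. *Hcn3*, a cation channel gene, overlaps *Pklr* on the opposite strand, and since strand use in counting is not given in the sources used here, reads of the pair cannot be told apart in the overlap. *Hcn3* was measured at 7.20 ± 6.24 FPKM for ASK1f/f and 4.39 ± 2.75 for ASK1+hep livers (SD, n = 5). The groups overlapped (adjusted p = 0.823 by limma, exact permutation p = 0.389). Its highest level, 17.9 FPKM, was in ASK1f/f replicate 1, the liver with the most *Pklr*, and its next highest, 9.30 FPKM, in ASK1+hep replicate 3. *Pklr* also encodes the pyruvate kinase of red cells. The 5 erythroid markers summed to 333 to 490 FPKM for ASK1f/f and 324 to 1053 for ASK1+hep livers. Of these, *Hba-a2* and *Hbb-bt* were at an unadjusted p below 0.05 by limma, with a higher level in ASK1+hep livers. *Hba-a1* and *Hbb-bs* also had higher estimates, not at that level, and *Alas2* had a lower one (log2 difference −0.13). The part of *Hcn3* reads or of red cells in the *Pklr* values was not tested. *Slc2a2*, *Insr*, *Irs1*, *Irs2* and *Ppargc1a* also overlap annotated genes. For *Irs1* this is a protein-coding gene, and some of those at *Ppargc1a* lie on its own strand. The part of such reads in their values was not tested either.

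*Pck1* (ENSMUSG00000027513, chr2:173153048-173159273, plus strand) was the most abundant of the 9 genes. Its levels in ASK1f/f replicates 1 to 5 were 924, 1090, 1016, 608 and 834 FPKM. In ASK1+hep replicates 1 to 5 they were 1282, 1312, 829, 713 and 1351 FPKM. ASK1+hep replicates 1, 2 and 5 lay above every ASK1f/f liver, while replicates 3 and 4 lay within the ASK1f/f range. The means were 894 ± 187 and 1098 ± 302 FPKM (SD, n = 5), and the log2 difference of 0.27 (SE 0.23, 95% interval −0.24 to 0.79) did not pass (adjusted p = 0.818 by limma, exact permutation p = 0.302). *Pck1* is also expressed in adipocytes. Adipocyte markers summed to 9.34 to 61.2 FPKM for ASK1f/f and 16.4 to 148 for ASK1+hep livers, with *Lep* at 0 in every liver. *Cidec*, a lipid droplet gene that fatty hepatocytes also express, alone held 3.96 to 52.9 FPKM for ASK1f/f and 11.8 to 133 for ASK1+hep livers. Of the 3 adipocyte markers tested, *Cidec* and *Lipe* had higher estimates in ASK1+hep livers (log2 differences 1.69 and 0.29). *Fabp4* had a lower one (−0.10). The part of adipocytes in the *Pck1* values was not tested.

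*G6pc* (ENSMUSG00000078650, chr11:101367561-101377903, plus strand) was expressed at 117, 116, 142, 131 and 46.1 FPKM in ASK1f/f replicates 1 to 5. The ASK1+hep replicates 1 to 5 held 129, 192, 161, 84.0 and 160 FPKM. The groups overlapped, with replicate 5 lowest among ASK1f/f and replicate 4 lowest among ASK1+hep livers. Means were 110 ± 37.5 and 145 ± 40.9 FPKM (SD, n = 5), and the log2 difference was 0.44 (SE 0.31, 95% interval −0.23 to 1.11, adjusted p = 0.812 by limma, exact permutation p = 0.310). ASK1f/f replicate 5, the library whose *Map3k5* went against its label, held that lowest ASK1f/f level, and the estimate was 0.15 without it.

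*Fbp1* (ENSMUSG00000069805, chr13:62864753-62888282, minus strand) had an estimate in the other direction from the other gluconeogenic enzymes. ASK1f/f replicates 1 to 5 held 402, 597, 513, 442 and 501 FPKM. ASK1+hep replicates 1 to 5 held 457, 455, 329, 424 and 479 FPKM. Both groups overlapped widely, with the lowest liver in ASK1+hep and the highest in ASK1f/f. Means of 491 ± 74.1 and 429 ± 59.2 FPKM (SD, n = 5) gave a log2 difference of −0.19 (SE 0.15, 95% interval −0.53 to 0.14, adjusted p = 0.815 by limma, exact permutation p = 0.214).

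*Slc2a2* (ENSMUSG00000027690, chr3:28697903-28731359, plus strand) encodes GLUT2, through which glucose enters and leaves hepatocytes. Its levels spanned 41.5 to 74.3 FPKM in ASK1f/f livers and 39.3 to 66.1 FPKM in ASK1+hep livers, nearly the same range. The means were 55.8 ± 12.3 and 52.7 ± 11.5 FPKM (SD, n = 5), a log2 difference of −0.08 (SE 0.18, 95% interval −0.48 to 0.32, adjusted p = 0.919 by limma, exact permutation p = 0.675). The interval still allows a fold of 0.716 to 1.24 (on log2(FPKM + 1)), and the sign turned when ASK1f/f replicate 3 or ASK1+hep replicate 4 was left out.

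The insulin receptor gene *Insr* (ENSMUSG00000005534, chr8:3122061-3279617, minus strand) varied least of the 9 genes, with a coefficient of variation of 7.31% in ASK1f/f and 11.9% in ASK1+hep livers. ASK1f/f replicates 1 to 5 held 9.03, 10.3, 9.74, 8.57 and 9.12 FPKM. ASK1+hep replicates 1 to 5 held 9.51, 9.12, 8.75, 7.19 and 9.96 FPKM. Apart from ASK1+hep replicate 4, which was lowest, the groups lay on top of each other. The log2 difference was −0.07 (SE 0.10, 95% interval −0.29 to 0.16, adjusted p = 0.884 by limma, exact permutation p = 0.484), so that a fold below 0.816 or above 1.11 lay outside the interval.

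The receptor substrates, which couple the insulin receptor to phosphatidylinositol 3-kinase, were both low, and *Irs2* exceeded *Irs1* in every liver. *Irs1* (ENSMUSG00000055980, chr1:82233101-82291416, minus strand) was measured at 0.419, 0.396, 0.563, 0.719 and 0.512 FPKM in ASK1f/f and at 0.545, 0.516, 0.103, 0.363 and 0.699 FPKM in ASK1+hep replicates 1 to 5. *Irs2* (ENSMUSG00000038894, chr8:10984681-11008458, minus strand) was measured at 1.85, 2.92, 2.15, 1.61 and 3.10 FPKM in ASK1f/f and at 2.71, 4.54, 2.20, 2.46 and 2.14 FPKM in ASK1+hep replicates 1 to 5. *Irs1* was lowest in ASK1+hep replicate 3, with ASK1+hep replicate 4 also below every ASK1f/f liver, and the other livers overlapped. *Irs2* was highest in ASK1+hep replicate 2, and ASK1f/f replicates 1 and 4 lay below every ASK1+hep liver. The log2 difference was −0.09 for *Irs1* (SE 0.11, adjusted p = 0.861 by limma, exact permutation p = 0.508) and 0.18 for *Irs2* (SE 0.18, adjusted p = 0.835 by limma, exact permutation p = 0.413). *Irs1* rested on 13 to 100 reads per library and *Irs2* on 155 to 371. Added to FPKM below 1, the pseudocount also understates fold changes of *Irs1*.

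*Ppargc1a* (ENSMUSG00000029167, chr5:51454250-51567726, minus strand) varied most within genotypes, with coefficients of variation of 43.8% and 59.6%. Levels in ASK1f/f replicates 1 to 5 were 0.990, 0.954, 1.79, 1.02 and 2.34 FPKM. In ASK1+hep replicates 1 to 5 they were 1.35, 1.37, 0.727, 0.616 and 2.62 FPKM. Both the highest and the lowest liver belonged to ASK1+hep. The log2 difference was −0.07 (SE 0.22, 95% interval −0.56 to 0.41, adjusted p = 0.949 by limma, exact permutation p = 0.794) on 60 to 238 reads per library, and it was 0.05 without the library labelled ASK1f/f replicate 5.

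**Figure D2:**
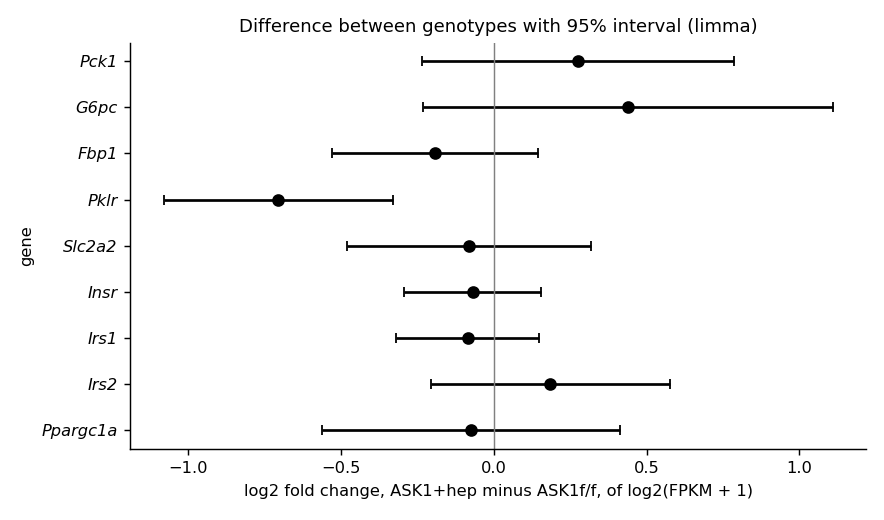
Log2 fold change of ASK1+hep over ASK1f/f livers (x axis, of log2(FPKM + 1)) for each of the 9 genes (y axis), with its 95% interval from limma, 5 livers per genotype. The *Pklr* interval, −1.08 to −0.33, lies below 0 and the other 8 intervals include 0; the intervals are not adjusted for the number of genes tested.

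Levels per length placed the 9 genes in the order *Pck1*, *Fbp1*, *G6pc*, *Pklr*, *Slc2a2*, *Insr*, *Irs2*, *Ppargc1a* and *Irs1*, with means over the 10 livers of 996 FPKM for *Pck1* and 0.483 FPKM for *Irs1*. *Pck1* exceeded *Fbp1*, *Fbp1* exceeded *G6pc*, *Slc2a2* exceeded *Insr* and *Insr* exceeded *Irs2* without overlap of their ranges. *Pklr* and *Slc2a2* could not be ordered, since *Pklr* was higher in 6 of 10 livers. In ASK1f/f livers *Pklr* averaged above *Slc2a2*, and in ASK1+hep livers below it. *G6pc* exceeded *Pklr* in 9 of 10 livers, *Irs2* exceeded *Ppargc1a* in 9 of 10, and *Ppargc1a* exceeded *Irs1* in all 10 with overlapping ranges.

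Each liver was set against the mean of all 10 livers, so a difference between genotypes enters the counts below. Such counts were not made over all genes tested, so a shift of a whole library cannot be told apart. ASK1+hep replicate 4 lay below the mean of the 10 livers for all 9 genes and ASK1+hep replicate 3 for 8 of 9, whereas ASK1+hep replicates 2 and 5 lay below it for 2 of 9 and ASK1+hep replicate 1 for 1 of 9. Among ASK1f/f livers the number below the mean was 7 in replicate 1, 4 in replicate 2, 1 in replicate 3, 5 in replicate 4 and 4 in replicate 5. *Pklr* was the one gene below the mean in all 5 ASK1+hep livers.

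**Figure D3:**
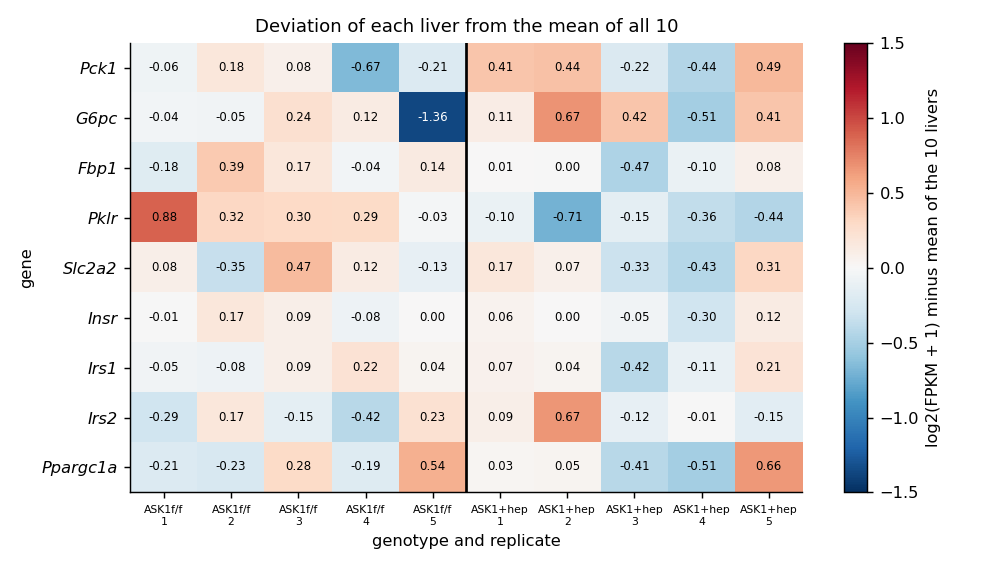
Deviation of each liver (columns, by genotype and replicate) from the mean of all 10 livers for each of the 9 genes (rows), in log2(FPKM + 1), with red above and blue below the mean. The *Pklr* row is negative in all 5 ASK1+hep livers, and the column of ASK1+hep replicate 4 is negative for all 9 genes.

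*Pck1* makes phosphoenolpyruvate and pyruvate kinase consumes it, so their ratio within a liver was examined, which does not depend on library scaling. *Pck1* exceeded *Pklr* by 8.64, 15.2, 14.2, 8.59 and 14.8 times in ASK1f/f replicates 1 to 5. In ASK1+hep replicates 1 to 5 it did so by 23.9, 37.5, 16.001, 16.02 and 32.1 times. All 5 ASK1+hep livers lay above all ASK1f/f livers, ASK1+hep replicates 3 and 4 only just. The geometric mean ratio was 11.9 in ASK1f/f and 23.6 in ASK1+hep livers, a log2 difference of 0.99 (exact two-sided permutation p = 0.00794, the smallest the design allows). The *Pklr* values enter both this ratio and the comparison above, so the ratio is no independent result. Leaving out each liver in turn gave log2 differences of 0.83 to 1.13 with exact permutation p of 0.00794 to 0.0476.

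*Irs2* exceeded *Irs1* by 2.24 to 7.38 times in ASK1f/f and by 3.06 to 21.4 times in ASK1+hep livers. The highest ratio, in ASK1+hep replicate 3, was in the liver with the fewest *Irs1* reads. Geometric means were 4.42 and 7.20, and the log2 difference of 0.70 lay within the spread between livers (exact two-sided permutation p = 0.246) and was 0.31 to 1.01 when single livers were left out.

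**Figure D4:**
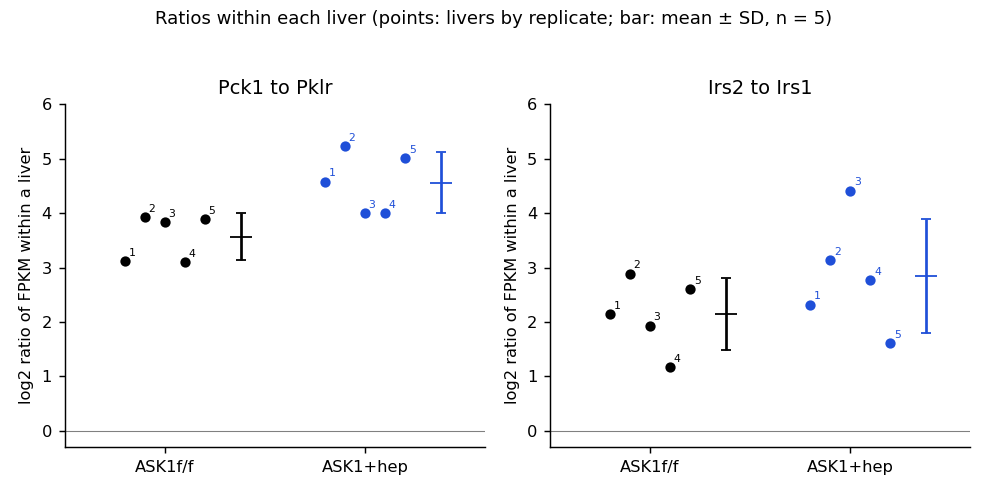
Log2 ratio of FPKM within each liver (y axis) of *Pck1* to *Pklr* (left) and of *Irs2* to *Irs1* (right), by genotype. Points are livers marked with their replicate number and bars give the mean ± SD (n = 5). The *Pck1* to *Pklr* ratio does not overlap between genotypes, at 3.10 to 3.92 in ASK1f/f and 4.00 to 5.23 in ASK1+hep livers, and the *Irs2* to *Irs1* ratio does.

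Relations between genes across the 10 livers were examined for the 36 pairs of the 9 genes and for each with *Map3k5* and *Fgf21*, 54 in all, and none passed after adjustment. The lowest adjusted permutation p was 0.455 for Pearson's r and 0.102 for Spearman's rho, and 4 relations were at an unadjusted permutation p below 0.05 for r. For rho, 6 relations were at that level. Among these, *Fbp1* and *Insr* had rho = 0.84 (permutation p = 0.00378, adjusted 0.102) but r = 0.56 (permutation p = 0.103, adjusted 0.461). *Slc2a2* and *Irs1* had r = 0.71 (permutation p = 0.0178, adjusted 0.455) and rho = 0.84 (permutation p = 0.00364, adjusted 0.102), with r = 0.74 without the 2 livers farthest from the *Slc2a2* median, and r = 0.52 within ASK1f/f and 0.83 within ASK1+hep livers. *Pck1* and *Insr* had r = 0.68 (permutation p = 0.0217, adjusted 0.455) and rho = 0.77 (permutation p = 0.0125, adjusted 0.226), with r = 0.68 without the 2 farthest livers and 0.89 within each genotype. *Slc2a2* and *Ppargc1a* had r = 0.64 (permutation p = 0.0485, adjusted 0.455) and rho = 0.71 (permutation p = 0.0275, adjusted 0.271), but r fell to 0.46 without the 2 farthest livers and was 0.23 within ASK1f/f and 0.94 within ASK1+hep livers. *Fgf21*, which encodes a fasting-induced hepatokine, averaged 3.53 ± 0.948 FPKM for ASK1f/f and 19.7 ± 9.45 for ASK1+hep livers (SD, n = 5, log2 difference 2.06, adjusted p = 0.355 by limma). It and *Pklr* each separated the genotypes, so no pooled r is given, and within genotypes r was 0.44 in ASK1f/f and −0.05 in ASK1+hep livers.

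Genes whose pattern over the 10 livers was most like each of the 9 were ranked by Pearson's r of log2(FPKM + 1) among all 13306 genes tested, as a description in which all genes share libraries and genotype. For *Pklr* they were *Gm11788* (r = 0.95), *Onecut1* (r = 0.92), encoding the hepatocyte transcription factor HNF6, and *Rab6b* (r = 0.91), a Rab GTPase gene. *Onecut1* averaged 2.18 FPKM for ASK1f/f and 0.939 for ASK1+hep livers. For *Pck1* they were *Nfrkb*, *Cdip1* and *Gsk3b* (r = 0.91, 0.91 and 0.90), the last encoding glycogen synthase kinase 3 beta. *G6pc* ran most like *Pbld1*, *Dennd4a* and *Glrx* (r = 0.90, 0.89 and 0.89) and *Fbp1* most like *Crp*, the acute phase C-reactive protein gene, *Heatr6* and *Adpgk*, an ADP-dependent glucokinase gene (r = 0.97, 0.96 and 0.96). *Slc2a2* ran most like *Dlg1*, *Zfp111* and *Sult1d1* (r = 0.96, 0.95 and 0.95) and *Insr* most like *Jdp2*, *Herpud1* and *St3gal5* (r = 0.96, 0.95 and 0.95). The closest to *Irs1* were *Gm5527*, *Tmpo* and *Gm37494* (r = 0.97, 0.96 and 0.96), to *Irs2* *Taok2*, *Kyat1* and *Gripap1* (r = 0.92, 0.91 and 0.91) and to *Ppargc1a* *Cobll1*, *Usp40* and *Otud4* (r = 0.96, 0.94 and 0.94).

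Further genes of these pathways were read from 9 lists, and 0 genes passed the adjusted threshold in any of them (limma, as for all genes tested). At an unadjusted p below 0.05, 406 of all 13306 genes had a higher and 362 a lower level in ASK1+hep livers, and the median log2 difference of all genes was −0.0065. For each list the 2 genes with the lowest p besides the 9 are named.

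In gluconeogenesis, 20 of 21 listed genes were tested, with 2 at a higher and 0 at a lower level at an unadjusted p below 0.05 and a median log2 difference of 0.085. *Mpc2*, a subunit of the mitochondrial pyruvate carrier, was at 19.8 ± 1.55 FPKM for ASK1f/f and 27.6 ± 6.24 for ASK1+hep livers (SD, n = 5, log2 difference 0.43, adjusted p = 0.812 by limma). *Pck2*, the mitochondrial counterpart of *Pck1*, was at 0.364 ± 0.0771 and 0.512 ± 0.0936 FPKM (log2 difference 0.15).

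Of 29 glycolysis genes, 26 were tested, 1 at a higher and 1 at a lower level at an unadjusted p below 0.05, the latter being *Pklr*, with a median of −0.061. *Hk2*, a hexokinase that hepatocytes hardly express, was at 0.232 ± 0.256 and 0.605 ± 0.343 FPKM (log2 difference 0.38), and *Pgk1*, phosphoglycerate kinase, at 135.0 ± 8.87 and 110 ± 26.0 FPKM (log2 difference −0.32). No other glycolytic gene tested separated the genotypes as *Pklr* did.

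The 20 glycogen genes tested had 0 at a higher and 2 at a lower level at an unadjusted p below 0.05 and a median of −0.050. These were *Pygl*, the liver glycogen phosphorylase, at 68.4 ± 7.87 FPKM for ASK1f/f and 54.7 ± 4.66 for ASK1+hep livers (SD, n = 5, log2 difference −0.31, adjusted p = 0.812 by limma), and *Gbe1*, the glycogen branching enzyme, at 21.96 ± 2.12 and 17.1 ± 4.76 FPKM (log2 difference −0.38). One enzyme breaks glycogen down and the other builds its branches.

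Hexose transporters gave 6 tested genes of 13, none at an unadjusted p below 0.05, with a median of −0.0041. *Slc2a9*, a urate and hexose transporter, had a log2 difference of −0.29, and *Slc5a1*, the sodium-glucose cotransporter, of 0.14.

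Among insulin signaling genes 35 of 38 were tested, 0 at a higher and 1 at a lower level at an unadjusted p below 0.05, with a median of −0.029. That gene was *Pik3r1*, encoding the p85α regulatory subunit of phosphatidylinositol 3-kinase, at 8.35 ± 1.45 FPKM for ASK1f/f and 6.03 ± 1.74 for ASK1+hep livers (SD, n = 5, log2 difference −0.43, adjusted p = 0.812 by limma). *Tbc1d4*, a substrate of Akt, had a log2 difference of −0.13. Of the 23 tested inhibitors of insulin signaling, 2 were at a higher and 0 at a lower level at an unadjusted p below 0.05, with a median of −0.014. These were *Trib3*, a pseudokinase gene known for inhibiting Akt, at 3.07 ± 1.14 and 5.60 ± 2.04 FPKM (log2 difference 0.70), and *Prkce*, encoding the protein kinase C isoform linked to insulin resistance of fatty liver, at 1.83 ± 0.180 and 2.41 ± 0.420 FPKM (log2 difference 0.26).

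Regulators of gluconeogenic transcription gave 38 tested genes of 40, with 1 at a higher and 1 at a lower level at an unadjusted p below 0.05 and a median of −0.044. *Nr0b2*, encoding SHP, a corepressor of gluconeogenic and bile acid genes, was at 19.1 ± 8.13 FPKM for ASK1f/f and 40.8 ± 12.8 for ASK1+hep livers (SD, n = 5, log2 difference 1.08, adjusted p = 0.712 by limma, exact permutation p = 0.0238), with overlapping groups. *Esrrg*, encoding the estrogen-related receptor gamma, was at 0.450 ± 0.330 and 0.125 ± 0.0371 FPKM (log2 difference −0.34). Without the library labelled ASK1f/f replicate 5 the *Nr0b2* difference was 1.29 and that of *Esrrg* −0.45.

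Of 22 genes listed as raised by fasting, which may not hold for each of them, 21 were tested. At an unadjusted p below 0.05, 2 of them were at a higher and 0 at a lower level, with a median of 0.054. These were *Fgf21*, described above, and *Asns*, the asparagine synthetase gene of the amino acid response, at 2.03 ± 2.19 and 7.02 ± 2.87 FPKM (log2 difference 1.56). The *Asns* groups overlapped, at 0.391 to 5.77 FPKM for ASK1f/f and 2.65 to 10.4 for ASK1+hep livers (adjusted p = 0.726 by limma). Without the library labelled ASK1f/f replicate 5 the *Asns* difference was 1.92. Another list held 19 genes raised by insulin or carbohydrate, which again may not hold for each of them. At an unadjusted p below 0.05, 0 of the 19 were at a higher and 2 at a lower level, and the median was −0.083. These 2 were *Pklr* and *Acly*, the ATP citrate lyase that supplies acetyl-CoA for lipogenesis, at 38.1 ± 3.96 FPKM for ASK1f/f and 26.5 ± 8.28 for ASK1+hep livers (SD, n = 5, log2 difference −0.55, adjusted p = 0.812 by limma). *G6pdx*, which feeds the pentose phosphate pathway, had a log2 difference of −0.22. The lists share members, so their counts are not independent.

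**Figure D5:**
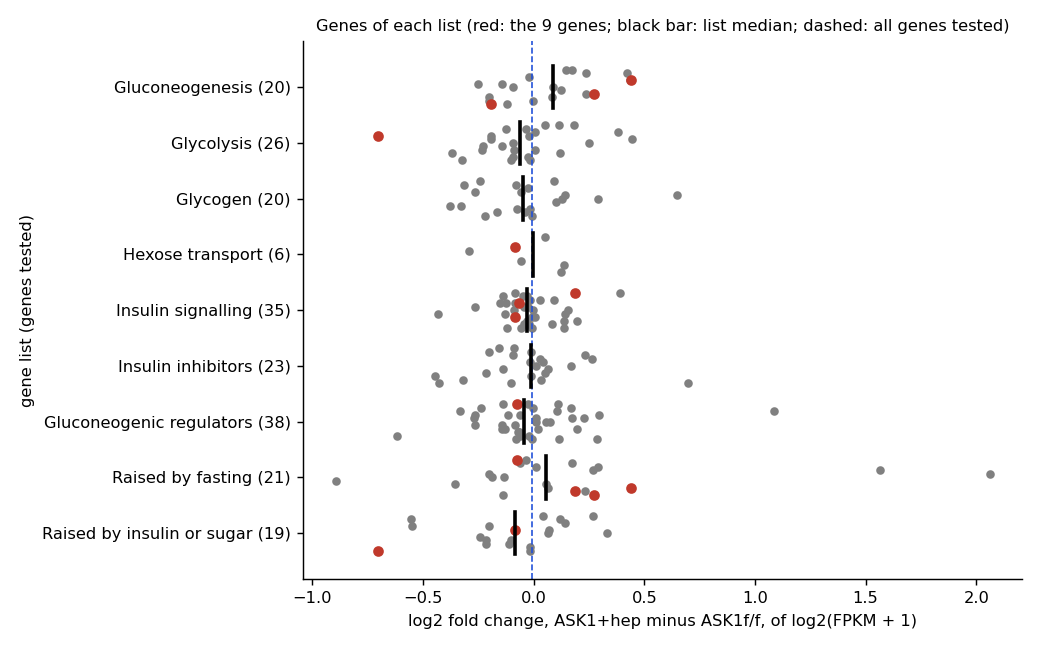
Log2 fold change of ASK1+hep over ASK1f/f livers (x axis, of log2(FPKM + 1)) for every tested gene of 9 lists (rows, with the number of genes tested). Grey points are single genes, red points those among the 9 genes, black bars list medians (−0.083 to 0.085), and the dashed line the median of all 13306 genes. *Pklr*, at −0.71, is the lowest point of the glycolysis list, and the highest points are *Fgf21* (2.06) and *Asns* (1.56) among genes listed as raised by fasting.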

How the data were processed

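Livers of 5 ASK1f/f and 5 ASK1+hep mice were grouped by the genotype in the labels. Per the study's methods, poly-A RNA was sequenced, and reads were cleaned, mapped with Hisat2 and assigned to genes with FeatureCounts. The authors deposited FPKM (fragments per kilobase of gene, scaled to a size per library) per gene with gene lengths. The size that the values imply was 0.890 times the reads on genes in ASK1+hep replicate 3 and 1.06 times in ASK1f/f replicate 1. It is thus not the plain number of reads. Versions, genome build and strand setting are not given in the sources used here, and gene positions of the table matched GENCODE M21 (GRCm38) for 98.3% of the genes found there. FPKM times length gave whole reads, and genes were kept that reached 10 reads, at the median depth, in 5 or more livers. The authors tested differential expression on counts, which was not repeated here.

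Genotypes were compared with limma 3.58.1 (R 4.3.3, mean-variance trend) on log2(FPKM + 1) with Benjamini-Hochberg adjustment over 13306 genes, checked on simulated data. Fold changes are on that scale, which understates changes of genes with low levels. Beside it stand exact two-sided permutation tests over the 252 splits of the livers (NumPy 2.4.6) and, for relations, 100000 resamples, with ranks from SciPy 1.17.1. The 9 genes, the lists and the tests were chosen with earlier results of these data known. Named besides the 9 genes are *Map3k5*, *Fgf21*, from each list the 2 other genes with the lowest p, and for each of the 9 the 3 genes with the highest r. *Hcn3*, *Hba-a1*, *Hba-a2*, *Hbb-bs*, *Hbb-bt*, *Alas2*, *Cidec*, *Lipe*, *Fabp4*, *Lep* and *Amy2b*, and the genes that show the sex, were named after their values had been seen. Listed genes without a single row in the table were left out, 1 hepatocyte marker, *Aldoa* of glycolysis and *Lcn13* of the genes raised by fasting. Alternatives were a pseudocount of 0.1, filters, voom, scaling by total reads, animal tag prefix as covariate or as a subset, a replicate block and leaving out each liver.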

Additional observations from a re-analysis of the deposited data

Results flagged for a closer look

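Of 26 groups of 5 values examined, 3 held a liver standing apart from the other 4 of its genotype by Dixon's criterion, and chance flags about 1 in 20 groups. *G6pc* was at 46.1 FPKM in ASK1f/f replicate 5, and the other ASK1f/f livers held 116 to 142 FPKM. *Map3k5* was at 19.8 FPKM in the same library, against 4.71 to 6.88 FPKM in the other ASK1f/f livers. *Fgf21* in that library was at 3.21 FPKM, within the ASK1f/f range of 2.46 to 4.74 FPKM. *Irs2* was at 4.54 FPKM in ASK1+hep replicate 2, against 2.14 to 2.71 FPKM in the other ASK1+hep livers, and its log2 difference between genotypes was 0.18 with and 0.04 without that liver.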

How the results depend on the processing

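The signs of the log2 differences of *Pck1*, *G6pc*, *Fbp1*, *Pklr*, *Insr* and *Irs2* held under all 19 alternatives, and leaving out single livers gave 0.14 (without ASK1f/f replicate 4) to 0.42 (without ASK1+hep replicate 4) for *Pck1*, 0.15 to 0.62 for *G6pc*, −0.26 (without ASK1f/f replicate 1) to −0.10 (without ASK1+hep replicate 3) for *Fbp1*, −0.11 to −0.0018 (without ASK1+hep replicate 4) for *Insr* and 0.042 (without ASK1+hep replicate 2) to 0.27 for *Irs2*. None of the 9 genes passed the adjusted threshold under any alternative in which it was fitted. *Irs1* and *Ppargc1a* could not be fitted when an FPKM of at least 1 was required in every liver. The sign turned for *Slc2a2*, *Irs1* and *Ppargc1a* when single livers were left out, with ranges of −0.18 to 0.025, −0.15 to 0.0082 and −0.25 to 0.050. *Pklr* ranged from −0.80 to −0.57, and its log2 difference was −0.64 among the 4 livers per genotype with the common animal tag prefix. No gene was called with all 10 livers by limma (768 at an unadjusted p below 0.05), and 1 was called by limma-voom with quality weights and without ASK1+hep replicate 5, giving 0 to 1 over the fits that left out a liver. That gene was *Fgf21*, at a log2 difference of 2.38 by voom with quality weights (adjusted p = 0.0445 by limma) and 1.87 to 2.35 when single livers were left out. The number at an unadjusted p below 0.05 was 1222 without a filter, 505 with an FPKM of at least 1 in every liver, 1178 without ASK1+hep replicate 1 and 1724 without ASK1+hep replicate 5. Scaling by total reads gave 271 higher and 591 lower genes at that level, against 406 and 362, and moved the median of all genes from −0.0065 to −0.052. Under that scaling the log2 difference was 0.20 for *Pck1*, 0.36 for *G6pc*, −0.27 for *Fbp1*, −0.78 for *Pklr* and −0.16 for *Slc2a2*. It was −0.14 for *Insr*, −0.10 for *Irs1*, 0.13 for *Irs2* and −0.11 for *Ppargc1a*.

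Same-numbered livers correlated in their deviations from the group means at 0.074, 0.17, 0.021, 0.17 and 0.093, and 4 of 5 numbers correlated best with their own, a hint of pairing from the data. The animal tags of same-numbered livers are also neighbors for 4 of 5 numbers, and controls were littermates per the study, but the labels do not say that a number marks a litter. With the replicate number as a block, limma called 0 genes (880 at an unadjusted p below 0.05), with an adjusted p of 0.609 for *Pklr*. The *Pck1* to *Pklr* ratio, at 0.99 on the log2 scale, had an exact permutation p of 0.0625 over 5 pairs, the smallest that 5 pairs allow. The lowest depth behind a value was 13 reads, for *Irs1* in 1 library.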
